A study of Mus musculus with 4 samples.

Results

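Prostaglandin synthesis and receptor genes were followed across 4 arrays of mouse 3T3-MEFs. The members are 10 named genes: the cyclooxygenase genes Ptgs1 and Ptgs2, the terminal synthase genes Ptgis, Ptges, Ptges2 and Ptges3, and the receptor genes Ptger1, Ptger2, Ptger4 and Ptgfr. They were found through the platform annotation, taking every probe set that it assigns to 1 of these symbols and to no other gene. This gave 17 probe sets for 8 of the 10 genes, of 34945 named probe sets for 18193 genes in all. Ptgs1 and Ptges3 had no probe set named for them alone and are not analysed here. Each gene is represented by its brightest probe set, the one with the highest mean signal over the 4 arrays.

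Arrays 1 and 2 of each genotype measured total RNA of wild-type or of SMRTmRID 3T3-MEFs. These are mouse embryonic fibroblasts grown as an immortal line, and both genotypes were undifferentiated and were harvested at confluence without any adipogenic treatment. SMRT is a corepressor through which nuclear receptors hold target genes silent, and SMRTmRID is mutated in its receptor interaction domains (RID). The labels call the 2 arrays of a genotype technical replicates. The p-values therefore measure only the spread between such arrays, and the variation between embryos or lines was not analysed here. With technical replicates alone, an effect of the mutation and another difference between the cell lines cannot be told apart.

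Prostanoids are short-range lipid signals made from arachidonic acid, which phospholipases release from membranes. Cyclooxygenases turn it into a common precursor, and terminal synthases turn that into prostaglandin E2, prostacyclin or other products, which act on neighbouring cells through receptors coupled to G proteins. In cultured preadipocytes the prostaglandin F receptor and the prostaglandin E receptor EP4 are known to restrain adipocyte differentiation, and prostacyclin is known to promote it.

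The 4 arrays were alike in quality. The trimmed mean signal was 200.0 on each, but the deposited values had been scaled to it, so it cannot compare the arrays' levels. The 3′ to 5′ ratio of the beta-actin controls lay between 1.19 and 1.20. Pearson's r across 11057 genes was 0.991 within each genotype and at most 0.861 between genotypes. Fibroblast markers were present, with all 14 tested and a summed signal of 95882 to 97910 in wild-type and 116202 to 121965 in SMRTmRID. Among these markers, 7 were called higher in SMRTmRID and 5 lower, with 2 left uncalled. Col1a1 and Vim were high in both genotypes, whereas others rose steeply: Thy1 from a mean of 13.6 to 3178, Lum from 3.15 to 183, Dcn from 62.3 to 8827 and Pdgfra from 254 to 4959. The wild-type means of Thy1 and Lum lay below the median of all values (35.1). Prostacyclin synthase is best known from endothelium and smooth muscle. Of 9 endothelial markers 7 stayed at or below that median on every array, among them Pecam1 and Cdh5, with summed signals of 221 to 252 for wild-type and 226 to 236 for SMRTmRID. The 8 smooth muscle markers summed to 18714 to 19074 and 17142 to 17913, a sum carried by Acta2 and Tagln. Of these 8 markers 5 were tested: Cnn1 and Actg2 rose by 1.45 and 0.88 on the log2 scale, Smtn and Tagln had log2 differences of -2.16 and -0.52, and Acta2 did not pass. Myh11, the defining myosin, had means of 15.3 and 5.53 and was not tested. Of 13 macrophage markers 6 stayed at or below that median, as did all 9 mast cell markers. The macrophage list summed to 423 to 620 and 615 to 651. Of its 4 tested markers Lyz2 and Cd14 were called higher, by 1.65 and 0.41 on the log2 scale, and none was called lower. The 10 epithelial and mesothelial markers summed to 1031 to 1061 in wild-type and 358 to 377 in SMRTmRID, mostly through the mesothelial gene Msln, which went from a mean of 684 to 27.9. Wt1, another mesothelial gene of that list, went the other way, from 4.85 to 64.4, and was not tested. The 5 adipocyte markers summed to 243 to 250 and 1374 to 1471, mostly through Fabp4. The 6 platelet and megakaryocyte markers summed to 5918 to 6086 and 872 to 925, mostly through the chemokine gene Ppbp, which other cell types express too. The part of the fibroblast, smooth muscle, macrophage, epithelial, adipocyte and platelet lists in the results below was not tested. In bulk RNA fewer cells of a type and less RNA per cell cannot be told apart.

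The terminal synthases went in opposite directions. Ptgis, the prostacyclin synthase gene, was high in wild-type and close to the low end of the signal range in SMRTmRID, whereas Ptges, the inducible prostaglandin E synthase gene, was low in wild-type and high in SMRTmRID. The receptor genes Ptger4 and Ptgfr rose, and Ptgs2 and Ptges2 fell by less than 2-fold. Of the 8 genes, 6 had a mean signal above the filter of 35.1 and were tested: 3 rose and 3 fell (limma, Benjamini-Hochberg adjusted p under 0.05 over 11057 genes). Calls were common in this comparison, at 65.2% of all tested genes, with 30.3% higher and 35% lower, so a count of 6 is no result about these genes. Ptgis and Ptges passed the filter through 1 genotype each, which makes a call likely in advance. Calls of at least 2-fold were made for 4 of the 6 genes, against 16.5% of all tested genes. Ptgis and Ptges are among these 4, and the members were chosen with earlier results of these data known. This count is therefore no result about these genes either. The median difference of all tested genes was -0.05 on the log2(signal + 16) scale, on which all differences below are given as SMRTmRID minus wild-type.

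**Figure D1:**
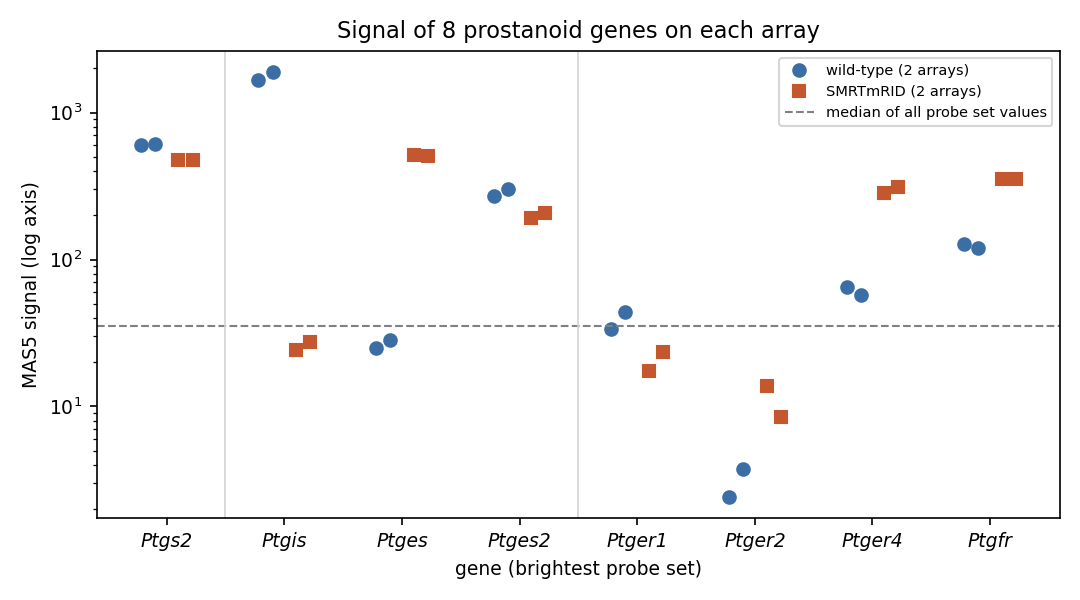
MAS5 signal (log axis) of the brightest probe set of 8 prostanoid genes on each of 4 arrays, with circles for wild-type, squares for SMRTmRID, and a dashed line at the median of all values, 35.1. Ptgis lies far above the line in wild-type and below it in SMRTmRID, Ptges does the reverse, and no gene's arrays overlap between genotypes.

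For Ptgis the wild-type arrays read 1681 and 1893, and the SMRTmRID arrays 24.3 and 27.4. Both wild-type arrays were high and both SMRTmRID arrays lay below the median of all values. The mean was 1787 ± 150.1 (SD, n = 2) in wild-type and 25.9 ± 2.23 (SD, n = 2) in SMRTmRID. On the log2 scale this was a difference of -5.43 ± 0.10 (SE), for which limma gave an adjusted p of 4.73e-10. No fold or rank is given, since detection in SMRTmRID is not known here. The size depends on the pseudocount, as the lower genotype is near the bottom of the range: it was -6.06 with a pseudocount of 1 and -4.36 with 64. Ptgis has a single probe set here, so no other probe set checks it.

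Ptges encodes the microsomal synthase that cytokines induce together with COX-2. The wild-type arrays read 24.9 and 28.2, and the SMRTmRID arrays 513 and 508. The arrays of a genotype were nearly level, and those of the genotypes stood far apart. The means were 26.6 ± 2.33 and 511 ± 3.91 (SD, n = 2 each). Their difference was 3.63 ± 0.13 (SE) in log2 units, with limma's adjusted p at 2.72e-08. As its wild-type signals are below the median of all values, its size depends on the pseudocount too, and no rank is given. The other 2 probe sets gave the same picture. One read 19.4 and 29.8 in wild-type, against 276 and 280 in SMRTmRID, and the other 15.6 and 7.88 against 294 and 285. Their log2 differences were 2.87 ± 0.18 and 3.47 ± 0.20 (SE). With other pseudocounts the difference of the brightest probe set was 4.22 (1) and 2.67 (64).

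Ptges2 encodes a membrane-associated prostaglandin E synthase that is made constitutively in many tissues. It read 271 and 301 on the wild-type arrays, and 191 and 208 on the SMRTmRID arrays. All arrays were well above the filter and the genotypes did not overlap, but the gap between the nearest arrays of the genotypes was only 0.36 on the log2 scale. The means were 286 ± 21.1 and 199.6 ± 11.4 (SD, n = 2 each), differing by -0.49 ± 0.10 (SE) in log2 units with an adjusted p of 0.00247 in limma's fit. A larger difference in either direction was found for 45.0% of all tested genes. The gene's direction was thus opposite to that of Ptges, which makes the same product.

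Ptgs2 encodes COX-2, the inducible cyclooxygenase. Wild-type arrays gave 601 and 613 and SMRTmRID arrays 476 and 478, so that the gene was measured at a moderate level in both genotypes. The wild-type arrays were both higher, with no overlap. The means were 607 ± 8.47 and 477 ± 1.12 (SD, n = 2 each), which differed by -0.34 ± 0.06 (SE) in log2 units (limma's adjusted p = 0.00130), and 59.2% of all tested genes differed more. The dimmer probe set gave 283 and 307 for wild-type against 231 and 249 for SMRTmRID, a log2 difference of -0.28 ± 0.10 (SE) that also passed when probe sets were tested singly (adjusted p = 0.0318).

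**Figure D2:**
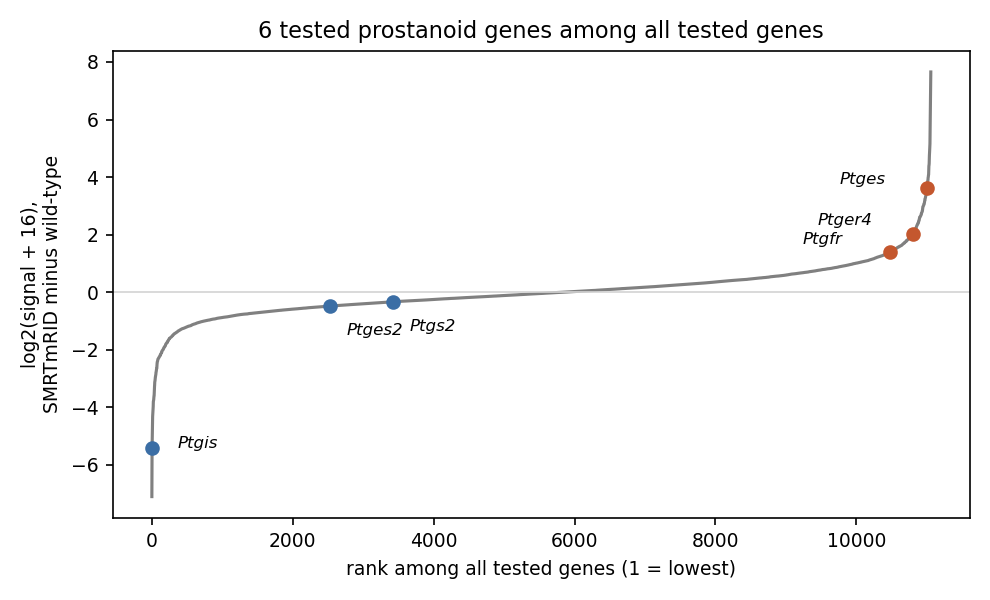
Log2 difference, SMRTmRID minus wild-type, of all 11057 tested genes in rank order (grey line), with the 6 tested prostanoid genes marked. Ptgis sits at the lower end and Ptges, Ptger4 and Ptgfr at the upper end, while Ptgs2 and Ptges2 lie on the flat middle stretch; the exact places of Ptgis and Ptges depend on the pseudocount, since 1 genotype is near the bottom of the signal range for each.

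Among the receptor genes, Ptger4 rose. It encodes EP4, a prostaglandin E2 receptor that raises cAMP. It read 65.1 and 56.9 in wild-type, against 286 and 314 in SMRTmRID. Every array was above the filter, and both SMRTmRID arrays were higher. The means were 61.0 ± 5.84 and 299.7 ± 19.5 (SD, n = 2 each). They differed by 2.04 ± 0.14 (SE) in log2 units, with limma's adjusted p at 1.19e-06, a difference exceeded in size by 3.56% of tested genes. The second probe set read 14.0 and 23.5 in wild-type, against 71.9 and 81.0 in SMRTmRID. It gave a log2 difference of 1.42 ± 0.25 (SE).

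Ptgfr encodes the prostaglandin F receptor, which signals through Gq and calcium, and has 5 probe sets here. The brightest read 128 and 119.9 in wild-type, against 352 and 355 in SMRTmRID. Both genotypes were above the filter and clearly apart. The means were 124 ± 5.84 and 353 ± 2.49 (SD, n = 2 each), differing by 1.40 ± 0.10 (SE) in log2 units (limma's adjusted p = 2.33e-06), and 8.37% of tested genes differed more. The next 3 probe sets rose by 1.61, 2.05 and 1.80, with wild-type means of 94.4, 35.1 and 31.1, against SMRTmRID means of 321, 196 and 146. The dimmest, with an x in its name, read 32.1 and 32.2 in wild-type, against 60.6 and 46.9 in SMRTmRID, and its log2 difference of 0.53 ± 0.23 (SE) did not pass (adjusted p = 0.0799, probe sets tested singly). The letter marks a probe set that shares probes with other sequences.

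Ptger1 and Ptger2 lay below the filter and were not tested. Ptger1 is the gene of the calcium-coupled receptor EP1. Its brighter probe set read 33.5 and 43.9 in wild-type, against 17.5 and 23.5 in SMRTmRID, a log2 difference of -0.58. The dimmer one read 5.28 and 17.3 in wild-type, against 2.11 and 4.73 in SMRTmRID. On that probe set the nearest arrays of the genotypes were only 0.04 apart on the log2 scale. Ptger2, the gene of the cAMP-raising receptor EP2, read 2.43 and 3.72 in wild-type, against 13.9 and 8.48 in SMRTmRID, a log2 difference of 0.50. The genotypes did not overlap for either gene. With all 18193 genes tested, of which 37.6% were called, neither passed (adjusted p = 0.163 for Ptger1 and 0.126 for Ptger2, limma). Arrays of the genotypes did not overlap in any of the 17 probe sets, but that held for 81.5% of all tested genes. When probe sets were tested singly 13 of the 14 above the filter passed, against 61.1% of 20080 named probe sets. The Ptgis probe set passed the filter through wild-type. Those of Ptges, the dimmer one of Ptger4 and dimmer ones of Ptgfr passed it through SMRTmRID. That makes a call likely in advance, and several probe sets share a gene, so this count is no result about these genes.

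**Figure D3:**
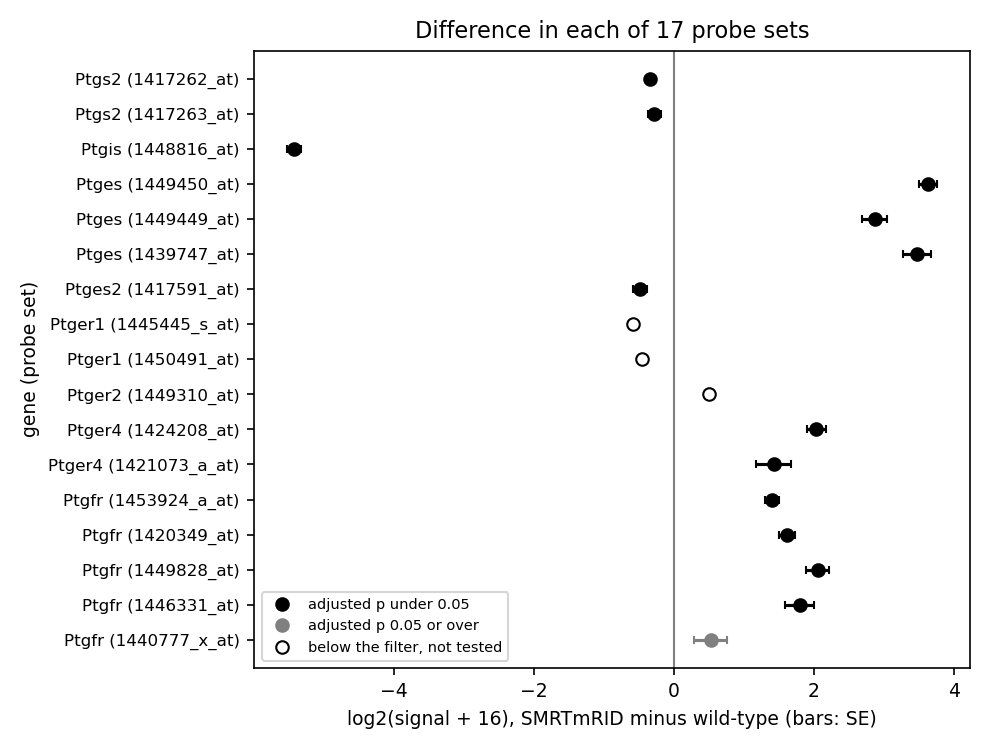
Log2(signal + 16) difference, SMRTmRID minus wild-type, in each of 17 probe sets of 8 genes, with bars for the SE of a fit in which each probe set was tested on its own; open circles were below the filter and not tested. All probe sets of a gene point the same way, and the dimmest of Ptgfr, in grey, is the only tested one that did not pass.

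Promoter sequences are shown for the members that rose at least 2-fold, Ptges, Ptger4 and Ptgfr, as the stretch where shared letters could be looked for. They were taken from RefSeq on GRCm38.p6, whose table holds 8 of the 10 members, among the 3 rising genes all 3. Ptgis, the other member called with at least a 2-fold difference, has no entry there, so its promoter was not searched. Each is the 250 bases before the annotated start, 5′ to 3′ on the gene's strand, which is the minus strand for all 3: chr2:30903298-30903547 for Ptges, chr15:5244188-5244437 for Ptger4 and chr3:151837529-151837778 for Ptgfr. Capitals mark matches to any of the motifs named after them.
Ptges: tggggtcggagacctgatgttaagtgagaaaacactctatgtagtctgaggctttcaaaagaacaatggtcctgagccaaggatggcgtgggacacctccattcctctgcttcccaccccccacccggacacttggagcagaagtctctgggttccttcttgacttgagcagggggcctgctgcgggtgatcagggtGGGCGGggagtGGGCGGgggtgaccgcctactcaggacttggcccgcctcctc
Ptger4: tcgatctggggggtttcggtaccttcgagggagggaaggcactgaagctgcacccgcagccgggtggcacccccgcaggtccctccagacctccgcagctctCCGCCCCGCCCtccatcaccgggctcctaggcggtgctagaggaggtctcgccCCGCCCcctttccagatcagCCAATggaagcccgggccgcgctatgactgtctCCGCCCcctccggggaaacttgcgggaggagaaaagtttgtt
Ptgfr: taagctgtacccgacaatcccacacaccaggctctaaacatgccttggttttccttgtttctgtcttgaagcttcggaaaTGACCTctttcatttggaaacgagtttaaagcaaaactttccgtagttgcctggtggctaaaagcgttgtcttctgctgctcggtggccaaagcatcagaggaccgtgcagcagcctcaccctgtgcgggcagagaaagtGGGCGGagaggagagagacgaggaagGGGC

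The motif searched that occurs in all 3 is the GC box core CCGCCC, read on both strands within the 250 bases before and the 50 after the start. Ptges has 2 matches, beginning 53 and 42 bases before its start. Ptger4 has 4, at 148, 143, 95 and 42 bases before it. Ptgfr has 2, at 30 and 4 bases before it, the latter running across the start, so that only its first letters are printed. This motif is held by 35.7% of 32851 promoters of the same length. CCAAT was found in Ptger4 alone, 75 bases before the start (37.4% of all promoters). AGGTCA, a half-site of nuclear receptors, was found in Ptgfr alone, 170 bases before and 3 after the start (16.3%). TATAAA (13.6%), TGACGTCA (1.79%), TGACTCA (5.2%), CACGTG (7.15%), GGGACTTTC (0.353%) and TTGCGCAA (0.183%) are not among the letters of these 3 windows. The first 2 GC boxes of Ptger4 overlap each other, and no other matches do.

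The genes nearest to each strongly changed member were named by Euclidean distance over the 4 arrays, after subtracting each gene's mean log2 value. With only 2 genotypes this finds genes with a difference of like size, and it is given as a description. Nearest to Ptges were the cytokine gene Il6, Cercam and the Wnt antagonist gene Sfrp2, at differences of 3.64, 3.62 and 3.51 and distances of 0.13, 0.16 and 0.17. Nearest to Ptgis were Perp, Col2a1 and C4bp at -5.10, -5.64 and -5.26, with distances of 0.36, 0.46 and 0.58. For Ptger4 they were Casd1, the chemokine gene Cxcl16 and the vasodilator peptide gene Adm at 2.02, 2.04 and 2.10, and for Ptgfr Trpm7, Sema4a and Ppp1r14c at 1.41, 1.40 and 1.44.

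The remaining prostanoid genes that could be tested were mostly higher. The 19 further genes cover synthases, receptors, a regulator of the prostaglandin F receptor (Ptgfrn), breakdown and transport. Of these, 18 had a probe set named here and 10 were tested: 8 rose, 1 fell and 1 did not pass. That is 90% called, against 65.2% of all tested genes, with a median difference of 0.69 against -0.05. Tbxa2r, the thromboxane receptor gene, rose from 9.91 ± 4.01 to 187 ± 34.0 (SD, n = 2 each), or by 2.97 ± 0.23 (SE) in log2 units (adjusted p = 3.55e-06, limma). Ptgir, the gene of the prostacyclin receptor, rose from 9.62 ± 2.86 to 76.1 ± 8.46, or by 1.85 ± 0.28 (SE) in log2 units (adjusted p = 2.62e-04, limma). The receptor for prostacyclin and the enzyme that makes it thus moved in opposite directions. Prxl2b, which encodes a prostaglandin F synthase, rose by 1.54. These 3 genes had wild-type means below the filter and passed it through SMRTmRID, which makes a rise likely in advance. They count in the 90% and in the median of 0.69. The same holds for the filter with Napepld, Dpep1, Plcb4 and Pde7b among the genes named from the other lists. Pla2g7 and Aloxe3, named from those lists too, passed it through wild-type, with SMRTmRID means of 34.2 and 28.5. Abcc4, a transporter gene whose product exports prostaglandins, had a log2 difference of -0.69 ± 0.07 (SE). Ptger3, Ptgds, Hpgds and the breakdown gene Hpgd were below the filter and were not tested.

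Genes that release arachidonate or return it to membranes went both ways. The 19 tested genes comprised 7 that rose, 5 that fell and 7 that did not pass, 63.2% called against 65.2% of all tested genes, with a median of -0.03 against -0.05. With quantile normalization 7 rose and 8 fell. Acsl4, an acyl-CoA synthetase gene with a preference for arachidonate, rose from 141 ± 5.34 to 687 ± 59.0, or by 2.16 ± 0.09 (SE) in log2 units (adjusted p = 7.25e-08, limma). Acsl3, of the same family, rose by 0.80. Napepld, which encodes a phospholipase D of endocannabinoid synthesis, rose by 1.00; with SMRTmRID replicate 2 left out the value was 0.88 and no longer called (adjusted p = 0.0624, limma). The phospholipase genes Pla2g7 and Plaat3 had log2 differences of -0.96 and -0.85, and Mboat7, which encodes an acyltransferase that attaches arachidonate to lysophosphatidylinositol, of -0.86.

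Lipoxygenase, leukotriene and epoxide genes divided evenly, with 3 of 9 tested genes higher, 3 lower and 3 not past the threshold. That is 66.7% called, close to the 65.2% of all tested genes. Dpep1, the gene of a dipeptidase that cleaves leukotriene D4, rose from 9.23 ± 9.19 to 220 ± 8.20, or by 3.27 ± 0.27 (SE) in log2 units. Ephx1, an epoxide hydrolase gene, fell from 2237 ± 52.1 to 467 ± 5.62, which is -2.22 ± 0.05 (SE) in log2 units (adjusted p = 1.88e-09, limma). Ephx2, the soluble hydrolase gene, rose by 0.65, but its value without SMRTmRID replicate 2, 0.56, was not called (adjusted p = 0.0874, limma). Aloxe3 had a log2 difference of -0.81, a call lost when wild-type replicate 1 (-0.78, adjusted p = 0.0633), wild-type replicate 2 (-0.84, 0.0518) or SMRTmRID replicate 2 (-0.74, 0.0513) was left out. Lta4h, the leukotriene A4 hydrolase gene, had a difference of -0.42 on its brightest probe set and of 0.25, not called, as the mean of its probe sets. Cyp4f16 had 0.54 on its brightest probe set, which was called, and -0.89, not called, on its dimmest one above the filter. Alox5, Alox5ap and Alox15 were below the filter.

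Genes that couple prostanoid receptors to cAMP and calcium were split, with 21 of 39 tested higher, 7 lower and 11 that did not pass. That is 71.8% called, near the 65.2% of all tested genes (30.3% higher and 35% lower), with a median of 0.24 against -0.05. The phospholipase C gene Plcb4 rose from 12.5 ± 2.93 to 439 ± 25.2, or by 3.998 ± 0.17 (SE) in log2 units (adjusted p = 5.53e-08, limma). Of genes that break cAMP down, Pde7b rose by 3.22 and Pde3b by 2.67, while Pde8a had a difference of -0.73. The receptor kinase gene Grk6 and the calcium channel gene Itpr3 had differences of -0.83 and -0.76.

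Of 18 tested genes known to be induced by cAMP, 12 were higher, 3 lower and 3 not past the threshold. That is 83.3% called, against 65.2% of all tested genes (30.3% higher and 35% lower), with a median of 0.98 against -0.05. The highest rises were those of Il6, from 125 ± 6.10 to 1749 ± 173, of the hyaluronan synthase gene Has2, from 144 ± 12.9 to 1656 ± 25.4, and of the phosphodiesterase gene Pde4b, from 84.7 ± 0.611 to 675 ± 13.1. Their log2 differences were 3.64, 3.38 and 2.78. Lif, Dusp1 and Cited2 had differences of -0.92, -0.71 and -0.30. Other signals induce these genes as well, and cAMP was not measured.

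Known inducers of Ptgs2 and regulators of its mRNA also split, with 11 of 23 higher, 5 lower and 7 not past the threshold. Called genes made up 69.6%, against 65.2% of all tested genes, and the median was 0.23 against -0.05. The list holds repressors of Ptgs2, such as Nr3c1, as well as inducers, so these counts give no direction for Ptgs2. The interleukin-1 receptor genes Il1rap and Il1r1 rose by 2.60 and 1.22 and the glucocorticoid receptor gene Nr3c1 by 1.26. Il1rn, the gene of the interleukin-1 receptor antagonist, fell from 2476 ± 86.3 to 1204 ± 59.8, which is -1.03 ± 0.05 (SE) in log2 units. Zfp36, whose product destabilises AU-rich mRNAs, had a difference of -0.91, and Khsrp, of like function, of -0.94 on its brightest probe set and 0.03, not called, on its dimmest one. Il1b, Il1a and Tnf themselves were below the filter.

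**Figure D4:**
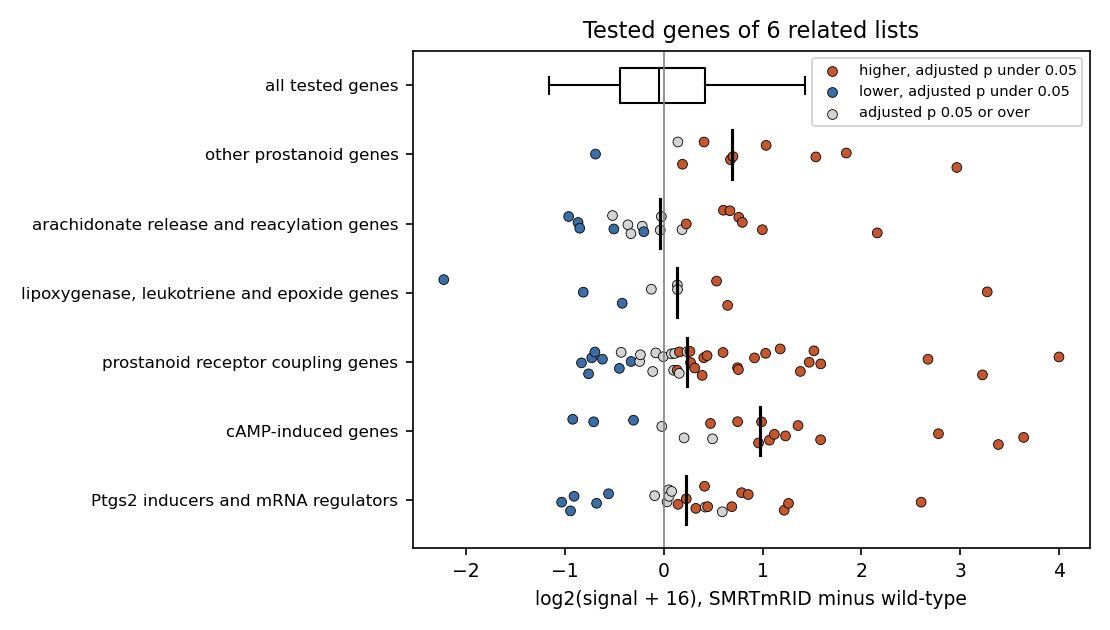
Log2 difference, SMRTmRID minus wild-type, of each tested gene of 6 related lists, coloured by call, with a black line at each list's median; the box shows the quartiles and median of all 11057 tested genes and its whiskers the 5th and 95th percentiles. The medians of the other prostanoid genes (0.69) and the cAMP-induced genes (0.98) lie furthest above that of all tested genes (-0.05). Among the other prostanoid genes, Tbxa2r, Ptgir and Prxl2b passed the filter through SMRTmRID, which makes a rise likely in advance.

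The 6 tested members kept their direction under every alternative in which they were tested, and their calls in all but 1. Ptgfr had a difference of 0.53 (adjusted p = 0.0930) when represented by its dimmest probe set above the filter. Leaving out 1 array at a time gave -5.51 to -5.34 for Ptgis, 3.57 to 3.69 for Ptges, 1.96 to 2.11 for Ptger4, 1.36 to 1.44 for Ptgfr, -0.56 to -0.42 for Ptges2 and -0.35 to -0.32 for Ptgs2.

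**Figure D5:**
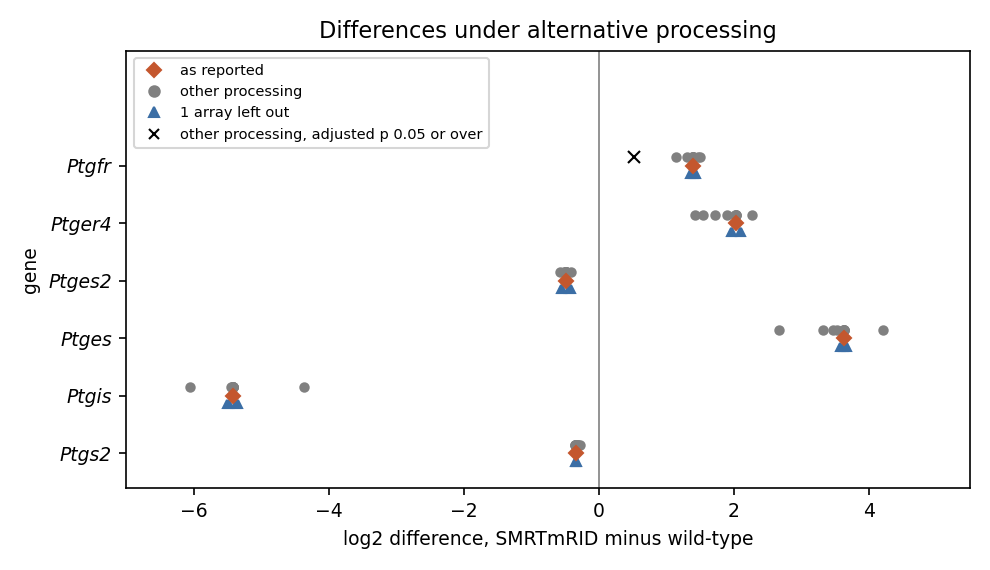
Log2 difference of the 6 tested members as reported (diamonds), with other processing (circles, and a cross where the adjusted p was 0.05 or over) and with 1 array left out (triangles). The alternatives spread most for Ptgis, from -6.06 to -4.36, and Ptges, from 2.67 to 4.22, and no point crosses 0.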

How the data were processed

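Total RNA was measured on biotin-labelled single-colour Affymetrix arrays. The values the authors deposited are intensities, 1 for each probe set on each array: MAS5 signals, per the submitters' processing notes, on a linear scale and already brought to one trimmed mean. Detection calls were not used here, so low signals are not called absent. Of 45101 probe sets, 64 controls were left out, 932 with several symbols and 9160 without one were not named, and 34945 had 1 symbol, of which 34741 were matched by gene ID to a table of GRCm38.p6 for current names.

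Each gene's brightest probe set was transformed to log2(signal + 16), genes with a mean signal above the median of all values were kept, and the comparison of genotypes used limma 3.58.1 under R 4.3.3 (lmFit, then eBayes with trend, no covariates, two-sided p). The fit was tested on simulated data with independent noise and far fewer changed genes than were called here. Its error rate in the real comparison is therefore not known from that test. Members and lists were chosen with earlier results of these data known. All members are reported, and of each list the up to 3 called genes with the greatest rise and fall. Pla2g4a, Pnpla8, Pla2g15 and the genes named as below the filter were chosen after their values were seen. Figures used matplotlib 3.10.9. Precision is limited by having 2 arrays in each genotype.

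Same-numbered arrays deviated from their genotype means with a correlation of 0.01 across genes, so the numbers were not used as pairs. Alternatives were other pseudocounts, filters, normalizations and probe set rules, no variance trend, a replicate block, and each array left out; testing every probe set singly was added after seeing the data.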

Additional observations from a re-analysis of the deposited data

How the results depend on the processing

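The count of 6 members past the threshold was 6 under each alternative that tested all 6 at their brightest probe set, including the replicate block and every array left out, and 5 with the dimmest probe set above the filter. It was 5 of the 5 tested above the 75th percentile of signal. The replicate block, with the numbers not shown to pair the arrays, gave 7420 calls over all genes against 7213 and left 6 members called. Other prostanoid genes past the threshold went from 9 to 5, cAMP-induced genes from 15 to 7 and lipoxygenase, leukotriene and epoxide genes from 6 to 3 with only genes above the 75th percentile of signal, where fewer genes were tested (5, 7 and 3). Ptgs2 inducers and mRNA regulators went from 16 to 9 with the dimmest probe set above the filter; the cause was not tested. Of 34 pathway genes named for the greatest rise or fall, 28 were called under every alternative that tested them. These 34 genes were picked among the called ones for their large differences, so this is no measure of how stable the lists are. Ptger1 and Ptger2 could be tested only without a filter, and fold sizes from signals near the bottom of the range, as for Ptgis and Ptges, depend on the pseudocount.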
